A study of Homo sapiens with 12 samples.

Results

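Of the 37110 H3K9ac regions listed on chromosomes 1 to 5, 7, 9 to 12, 14 to 18 and 20 to 22, 255 were at least 5000 bp wide (end minus start) and are described here as broad domains. They were chosen by width on those chromosomes, and the rule used no treatment values. How libraries of both groups entered the widths was not stated in the labels. The broad domains were set beside the 4827 regions of 2000 bp up to just under 5000 bp on the same chromosomes, called regions of 2 to 5 kb below. The whole table held 47648 regions. Acetylation of histone H3 at lysine 9 (H3K9ac) was measured by chromatin immunoprecipitation sequencing in MOLM-13, a human acute myeloid leukaemia line of monocytic type. Its cells have a fusion of KMT2A to MLLT3 and an internal tandem duplication in FLT3. All libraries came from this line: 3 after the solvent DMSO alone and 3 after 4 days of WM-1119 at 4 µM. WM-1119 is an inhibitor of KAT6A, a lysine acetyltransferase of the MYST family. The series also has 6 input samples, which were not analysed here, so no value is corrected for input. Nothing in the labels says that replicates came from separate cultures. The p-values therefore measure the spread between these libraries, which may be technical.

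H3K9ac is laid down by lysine acetyltransferases at the promoters and enhancers of genes in use, and it is removed by histone deacetylases. At most active promoters it forms a peak on the nucleosomes on either side of the start site. At some genes, often ones that set the identity of a cell, acetylation spreads over many kilobases of the promoter and gene body or over clusters of enhancers. In leukaemias with a KMT2A fusion, the fusion protein spreads over its target genes, HOXA9 and MEIS1 among them, and recruits elongation factors and the methyltransferase DOT1L to them.

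The starts of 4 of these genes are shown because they belong to wide domains or to the extremes of signal per kb. Each line gives the 250 bases before the annotated start from RefSeq on GRCh38.p14, read in the direction of the gene, with CG dinucleotides, the sites of CpG methylation, in capitals. MEIS1 (chr2:66434875-66435124, plus strand) encodes a homeobox partner of HOX proteins and has a domain of 16380 bp. PBX3 (chr9:125747933-125748182, plus strand) encodes another such partner and has a domain of 19879 bp. PTMA (chr2:231708275-231708524, plus strand) encodes prothymosin alpha, an acidic nuclear protein, and had the most signal per kb. HES7 (chr17:8124107-8124356, minus strand) encodes a Notch pathway repressor and had the least signal per kb among domains with a placed coding start.

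MEIS1: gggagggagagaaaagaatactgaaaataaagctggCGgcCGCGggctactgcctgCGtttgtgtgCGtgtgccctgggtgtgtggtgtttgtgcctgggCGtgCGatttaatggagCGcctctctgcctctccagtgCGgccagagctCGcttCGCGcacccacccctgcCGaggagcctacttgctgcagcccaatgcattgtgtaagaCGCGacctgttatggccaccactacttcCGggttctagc
PBX3: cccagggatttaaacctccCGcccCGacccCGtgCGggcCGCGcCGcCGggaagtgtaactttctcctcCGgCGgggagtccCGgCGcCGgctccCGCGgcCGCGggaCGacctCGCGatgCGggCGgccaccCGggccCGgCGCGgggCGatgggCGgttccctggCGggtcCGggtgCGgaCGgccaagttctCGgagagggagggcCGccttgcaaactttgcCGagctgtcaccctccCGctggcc
PTMA: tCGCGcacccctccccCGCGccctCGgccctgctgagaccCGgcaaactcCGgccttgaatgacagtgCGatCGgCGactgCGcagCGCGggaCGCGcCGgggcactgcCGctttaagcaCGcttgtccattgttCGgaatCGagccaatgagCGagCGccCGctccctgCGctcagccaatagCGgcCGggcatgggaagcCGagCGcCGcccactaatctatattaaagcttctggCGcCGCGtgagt
HES7: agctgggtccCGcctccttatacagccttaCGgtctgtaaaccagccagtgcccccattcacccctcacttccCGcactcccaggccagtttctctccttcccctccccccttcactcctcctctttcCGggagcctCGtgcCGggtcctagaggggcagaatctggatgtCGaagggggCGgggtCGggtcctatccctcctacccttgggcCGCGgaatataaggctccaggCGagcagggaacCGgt

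The stretches hold 16 CG dinucleotides in MEIS1, 36 in PBX3, 32 in PTMA and 13 in HES7. Over the 300 bases from 250 before to 50 after each start, the 336 annotated starts of coding genes inside broad domains had a median of 27 CG dinucleotides, against 29 for the 5682 starts in regions of 2 to 5 kb, 26 for the 4050 in narrower regions and 6 for the 7794 starts in no listed region. Thus the starts in broad domains were about as rich in CG as other acetylated starts. The motif TATAAA, searched on both strands like every motif here, was in 6.85% of the starts in broad domains, 4.00% of those in regions of 2 to 5 kb and 9.46% of all 17862 starts. The motif CCGGAAG, the core read by ETS factors, was in 9.52%, 21.5% and 12.7%, and GGGCGG, the core read by SP1, in 69.3%, 75.1% and 56.0%. None of these motifs contains another. Several starts of 1 gene can share bases, so these shares are descriptions only.

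The 255 domains hold 12 microRNA genes, which lie in 10 of them and have 17 mature sequences in RefSeq. Of these, 5 of these are shown because they belong to domains with high signal or share a seed. Seeds (bases 2 to 8) are in capitals.

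hsa-miR-142-5p: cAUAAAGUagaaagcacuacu
hsa-miR-142-3p: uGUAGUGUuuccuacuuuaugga
hsa-miR-196b-5p: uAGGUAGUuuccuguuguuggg
hsa-miR-15b-5p: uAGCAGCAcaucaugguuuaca
hsa-miR-16-5p: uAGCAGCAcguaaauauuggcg

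Both arms of miR-142, a microRNA of blood cells, come from the 18301 bp domain that overlaps TSPOAP1 and the host transcript MIR142HG (miR-142-5p at chr17:58331283-58331303). The gene of miR-196b lies between HOXA9 and HOXA10 in the HOXA domain (miR-196b-5p at chr7:27169528-27169549). miR-15b-5p and miR-16-5p share the seed AGCAGCA and lie in 1 domain over IFT80 and SMC4 (chr3:160404607-160404628 and chr3:160404754-160404775). ChIP signal over a microRNA gene does not measure the microRNA.

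Depth differed between libraries and bears on every comparison of treatment below. DMSO replicates 1 to 3 held 719329, 1298443 and 7481097 reads over the listed regions, and 4542322 and 12705349 were found for WM-1119 replicates 1 and 3. For WM-1119 replicate 2 the read number was not derived. All values below are CPM, scaled so that the listed regions of each library sum to 1000000, and are given in the order of replicates 1, 2 and 3. DMSO replicates 1 and 2 stood apart: the median region under 2 kb held 15.9 and 12.9 CPM per kb in them, against 4.98 in DMSO replicate 3 and 4.79 to 6.49 in the WM-1119 libraries. Since values are shares of a fixed total, more signal in narrow regions leaves less for wide ones. Log2 changes of broad domains are therefore also given without these 2 libraries. That leaves 1 DMSO library, which the test then assumes to vary like the WM-1119 libraries. As a check of the line, 5 of the 6 leukaemia and myeloid marker genes on these chromosomes had a broad domain (SPI1, HOXA9, MEIS1, RUNX1 and IKZF1). Of all 10 such markers 7 had a region of at least 5000 bp, and the strongest region of each of the 10 held 17.7 to 1048 CPM on average. The 4 erythroid markers had no listed region, and the strongest region over 6 lymphoid and 4 non-blood markers held at most 14.7 CPM and 9.83 CPM. Longer lists used below were less sharply split. Of 30 lymphoid and erythroid genes, 2 (RAG1 and TFRC) had a region of 2 to 5 kb and 16 had no listed region. Of 26 myeloid differentiation genes, 5 had a region of 2 to 5 kb and 9 had no listed region.

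The broad domains were 5004 to 30821 bp wide, with a median of 6140 bp. Of the 255, 118 were under 6 kb, 40 were at least 10 kb, 14 at least 15 kb and 4 at least 20 kb. Together they covered 1.90 Mb, against 13.6 Mb for the regions of 2 to 5 kb. At the width limit, the narrowest domains lay over IPMK and CISD1 (5004 bp, 30.4 CPM per kb), KCNN2 (5004 bp, 24.8 CPM per kb) and CPEB2 (5007 bp, 8.64 CPM per kb). Just outside it were regions over ATP8B4 (4998 bp, 12.1 CPM per kb), TXNIP (4988 bp, 31.3 CPM per kb) and PHF12 (4981 bp, 38.1 CPM per kb). Among regions of at least 2000 bp, the share that reached 5000 bp ran from 2.34% on chromosome 14 to 8.40% on chromosome 18.

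**Figure D1:**
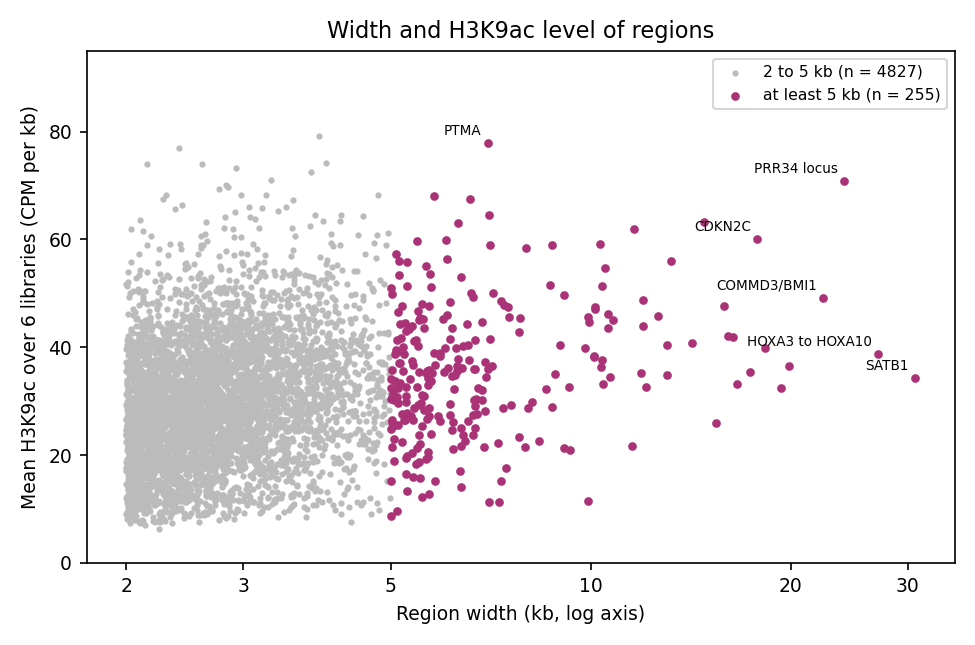
Width in kb (log axis) against mean H3K9ac over the 6 libraries (CPM per kb) for each of the 255 broad domains (coloured) and the 4827 regions of 2 to 5 kb (grey). The domains reach from 8.64 to 77.8 CPM per kb, and the widest of them lie within the range of signal per kb of the grey regions.

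A broad domain held a median of 221 CPM (43.3 to 1706), against 78.1 CPM in regions of 2 to 5 kb. Per kb the gap was smaller: a median of 35.4 CPM per kb (8.64 to 77.8) against 29.2, and 8.57 in narrower regions. The ratio of the broad median to that of the 2 to 5 kb regions was 1.10, 1.22 and 1.33 in the DMSO libraries and 1.13, 1.24 and 1.25 in the WM-1119 libraries, so it was above 1 in all 6. The group means were 1.22 ± 0.113 (SD, n = 3) with DMSO and 1.21 ± 0.0692 (SD, n = 3) with WM-1119, and these groups overlapped. Across the 255 domains, the Spearman correlation of width was 0.65 with total CPM and 0.22 with CPM per kb. Width and signal come from the same libraries, so these are descriptions. Domains kept much the same order in every library, with Spearman correlations of 0.894 to 0.982 over the 15 pairs of libraries.

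The widest domain covered SATB1 (chr3:18417545-18448365, 30821 bp), which encodes an organiser of chromatin in blood cells, and its antisense gene SATB1-AS1. It held 794, 966 and 1253 CPM with DMSO and 834, 1159.7 and 1328 CPM with WM-1119. The next covered the starts of HOXA3, HOXA7, HOXA9 and HOXA10 (chr7:27148006-27175073, 27068 bp), homeobox genes that KMT2A fusions keep active, and the microRNA gene MIR196B shown above. It held 747, 956 and 1175 CPM with DMSO and 1014, 1087 and 1309.5 CPM with WM-1119. In both domains replicate 3 was the highest of each group, and the groups overlapped.

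The domain with the most signal of all lay on chromosome 22 (chr22:46060003-46084090, 24088 bp), over the predicted coding gene LOC124905135 and the long noncoding RNA gene LINC02939. It held 999.5, 1521 and 1998 CPM with DMSO and 1463, 2097 and 2156 CPM with WM-1119. A pair of further broad domains overlapped the same coding gene, and with it PRR34, PRR34-AS1 and LINC00899, with gaps of 102 and 256 bp between the 3. In each of the 3, replicate 1 was the lowest library of both groups. The plots call these domains the PRR34 locus.

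The domain over COMMD3 and BMI1 (chr10:22308156-22330563, 22408 bp) included the start of BMI1, which encodes a subunit of Polycomb repressive complex PRC1. It held 774, 939 and 1272 CPM with DMSO and 1077, 1220.2 and 1336 CPM with WM-1119. A second domain of 11608 bp followed after 681 bp. PBX3 (chr9:125744896-125764774) held 531, 642 and 749 CPM with DMSO and 690.2, 837 and 909.8 CPM with WM-1119, and its domain ran 3287 bp upstream and 16591 bp downstream of the start. MEF2C (chr5:88872005-88891376, 19372 bp), which encodes a MADS box factor, held 517, 549 and 693 CPM with DMSO and 600.1, 657 and 749 CPM with WM-1119. In these 3 domains too, replicate 1 was lowest and replicate 3 highest in each group.

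**Figure D2:**
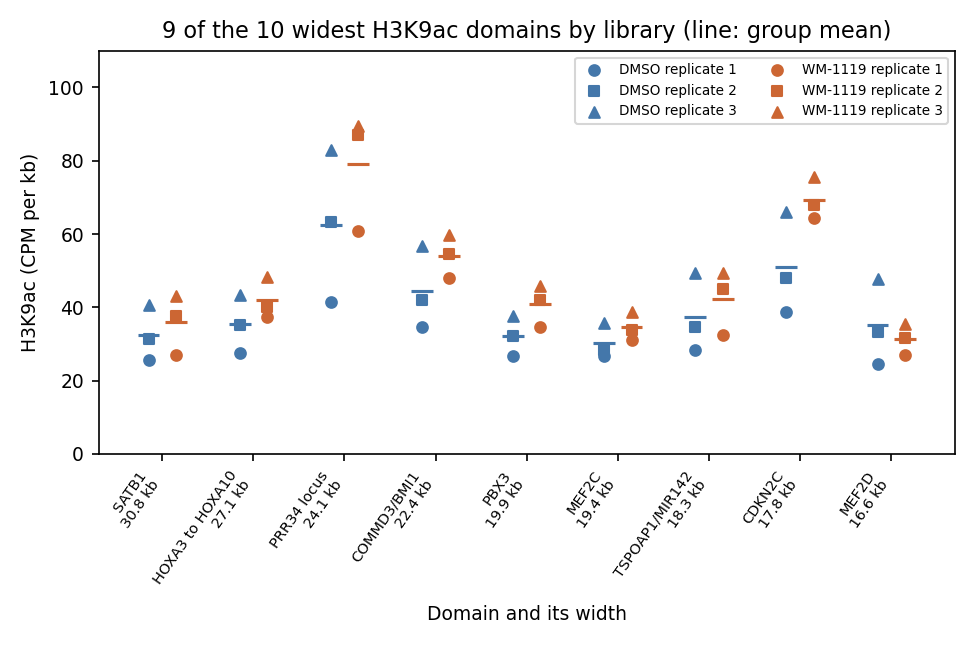
H3K9ac (CPM per kb) of 9 of the 10 widest domains in each of the 6 libraries, with a line at each group mean (n = 3). In every one of the 9 the DMSO points (blue) and the WM-1119 points (orange) overlap, and replicate 1 (circles) is the lowest library of its group.

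Others among the 10 widest covered TSPOAP1 with MIR142HG (18301 bp, 39.8 CPM per kb), CDKN2C (17833 bp, 60.1 CPM per kb) and MEF2D (16620 bp, 33.3 CPM per kb). CDKN2C encodes the CDK4 and CDK6 inhibitor p18, and MEF2D a relative of MEF2C. By total signal, the 10 strongest domains also took in those over CDKN1B with APOLD1 (934 CPM), IRF2BP2 (757 CPM) and HNRNPU (739.9 CPM). CDKN1B encodes the cell cycle inhibitor p27.

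By signal per kb the highest domains were those over PTMA (77.8), LOC124905135 (70.8 for the widest and 64.5 for the narrowest of its 3), ETV6 (68.0) and ANP32A (67.6). ETV6 encodes an ETS repressor needed by blood stem cells, and ANP32A an acidic nuclear protein. The lowest were domains inside CPEB2 (8.64), MIDEAS (9.55) and ZNF521 (11.2), the one over the start of HES7 (11.2) and one inside TTC7A (11.5). The domains in CPEB2, MIDEAS and TTC7A held no start of a coding gene, and the start of ZNF521 could not be placed.

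Of the 255 broad domains, 246 (96.5%) overlapped a coding gene by at least 1 bp, against 94.6% of the regions of 2 to 5 kb. They named 291 coding genes: 186 domains overlapped 1, 54 overlapped 2 and 6 overlapped 3 or more. In 192 domains (75.3%) lay an annotated coding start, against 77.3% of the 2 to 5 kb regions. In 31 more, the start of an overlapping gene could not be placed. A start of a long noncoding RNA gene lay in 75 domains (29.4%, against 19.97%), and a pair of divergent starts within 1 kb in 20 (7.84%, against 11.2%). A wider region has more room for any start, so these shares are not per length.

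In the 157 domains with starts of only 1 coding gene, distances were taken from its most upstream annotated start inside the domain. Signal reached a median of 2123 bp upstream and 4366 bp downstream of it. Where a gene has several starts inside the domain, this choice lengthens the downstream side. By the same measure, the regions of 2 to 5 kb with starts of 1 coding gene reached 919 and 1695 bp. The downstream side was the longer in 129 of the 157 domains (82.2%) and in 85.6% of those regions. MEIS1 had 2297 bp upstream and 14082 bp downstream, ZEB2 273 and 12753 bp. MEF2D was the other way round among the widest, with 14969 bp upstream of its start and 1650 bp downstream.

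Broad domains often had another region close by. The gap to the nearest listed region had a median of 206 bp, against 1361 bp for regions of 2 to 5 kb, and it was under 1 kb for 189 domains (74.1%, against 47.2%). The rule by which regions were merged was not stated in the labels, and the number and width of domains depend on it. More than 1 broad domain lay over 15 genes (7 with 2 domains and 8 with 3): BAZ2B, BMI1, COMMD3-BMI1, CPEB2, CSK, GSE1, JMJD1C, KCNN2, LOC124905135, MBNL1, MEF2C, MGRN1, PBX3, SKIDA1 and ZNF521. On chromosome 10, 3 domains over SKIDA1 and 1 over MLLT10, a partner of KMT2A in other leukaemia fusions, followed one another with gaps of 95, 1224 and 1285 bp. Those 4 domains held 32.7, 36.0, 48.6 and 38.9 CPM per kb.

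The 9 domains without a coding gene included 8 over long noncoding RNA genes. NEAT1 (chr11:65415895-65427791, 11897 bp), the RNA scaffold of paraspeckles, held 367, 364 and 399 CPM with DMSO and 531, 419 and 437 CPM with WM-1119, and its groups did not overlap. MALAT1 (chr11:65496257-65506369, 10113 bp), a nuclear speckle RNA, held 332, 333 and 371 CPM with DMSO and 519.8, 359.5 and 398 CPM with WM-1119, and its groups overlapped. The remaining one, chr4:180051719-180067838 (16120 bp), overlapped no gene in the annotation and lay 1379775 bp from the nearest coding gene. It held 507, 645 and 783 CPM with DMSO and 622, 731 and 786 CPM with WM-1119, 42.1 CPM per kb, which is above the median broad domain.

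Gene lists show which kinds of genes the domains cover. Of 15573 coding genes on these chromosomes, 291 (1.87%) overlapped a broad domain. Among targets of KMT2A fusions the number was 16 of 28 (57.1%): BCL2, CDK6, CPEB2, HOXA3, HOXA7, HOXA9, HOXA10, HOXA11, IGF2BP2, JMJD1C, MBNL1, MEF2C, MEIS1, PBX3, SKIDA1 and ZEB2. Of the other 12, 4 (HOXA13, LMO2, TAPT1 and ZFPM1) overlapped a region of 2 to 5 kb at most, 3 a narrower one and 5 no listed region. The 5 HOXA genes share 2 domains, and the list was drawn up with results of these data known. The genes on it span a median of 56.4 kb, against 25.99 kb for all coding genes and 30.6 kb for the 291. The part of gene length in the count was not tested.

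Blood transcription factors had a broad domain in 9 of 44 cases (20.5%). These were BCL11A, ETV6, GFI1, IKZF1, IRF8, MEF2D, RUNX1, SPI1 and TCF12. Signalling and cell cycle genes had one in 9 of 43 (20.9%), with CDKN1B, CDKN2C, CDK6, the STAT5 feedback genes CISH and SOCS2, DUSP6, PTPN6, BCL2L11 and ZFP36L2. Chromatin regulators had one in 9 of 54 (16.7%): the SWI/SNF subunits ARID1A and ARID2, the H3K4 methyltransferase genes KMT2D and SETD1B, BMI1, CHD2, and the KMT2A partner genes or their relatives AFF1, MLLT6 and MLLT10. Immediate early genes had one in 3 of 20, namely BTG1, FOS and FOSL2. Constitutively used genes had one in 2 of 19 (ACTB and GAPDH). The blood transcription factor and chromatin regulator lists span medians of 55.4 and 76.8 kb, against 25.99 kb for all coding genes. The signalling and cell cycle list has a median near that of all coding genes. Immediate early and constitutively used genes are shorter, with medians of 6.37 and 13.8 kb. The part of gene length in these counts was not tested either.

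Ribosomal protein genes are strongly used in most cells, and 2 of 54 (RPL4 and RPL23A) had a broad domain, while 47 had a region of 2 to 5 kb at most; these genes span a median of 5.15 kb. No gene of 26 on the myeloid differentiation list and none of 30 on the lymphoid and erythroid list had one. In lists of this size that is near the 1.87% of all coding genes. These lists span medians of 16.2 and 13.1 kb, against 25.99 kb for all coding genes. Of 17 genes looked up by name on these chromosomes whatever their values, 15 had a broad domain. These 17 are also on the gene lists described here, which were drawn up with results of these data known. The count is therefore a description only. The 2 without were KAT6B, a paralogue of KAT6A, with a region of 3081 bp, and KMT2A, with one of 4520 bp.

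Of the 255 broad domains, 1 passed the test of WM-1119 against DMSO. In limma's test with Benjamini-Hochberg adjustment over all 44763 regions averaging 1 CPM or more, 27 regions had an adjusted p under 0.05 and were lower with WM-1119 (0.0603% of those tested), and 0 were higher (0%). The broad domain was 1 of those 27. Without DMSO replicates 1 and 2, no broad domain passed, while 14 regions of the table were higher (0.0313%) and 9 lower (0.0201%). With the replicate number as a block, 9 broad domains passed as higher (3.53%, against 0.25% of all tested regions) and 5 as lower (1.96%, against 0.858%). At an unadjusted limma p under 0.05, 53 broad domains were higher (20.8%, against 2.58% of all tested regions) and 8 were lower (3.14%, against 10.8%). In the regions of 2 to 5 kb these shares were 13.3% and 3.87%. The groups did not overlap in 19 domains that were higher (7.45%, against 3.76% of all tested regions) and in 8 that were lower (3.14%, against 13.2%). The regions of 2 to 5 kb had 16.9% and 4.39%, so the share without overlap that was higher was larger there than in broad domains. The split depends on scaling: with quantile normalization the numbers at that unadjusted threshold were 7 higher and 45 lower, and without DMSO replicates 1 and 2 they were also 7 and 45. With edgeR on the reads of 5 libraries no region of the table passed, and 350 were higher and 1773 lower before adjustment at 0.05.

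The called domain lay inside TTC7A, which encodes a scaffold of the lipid kinase complex at the plasma membrane (chr2:46977476-46987377, 9902 bp). It held 152, 145 and 134 CPM with DMSO and 77.1, 94.3 and 81.4 CPM with WM-1119. Every WM-1119 library was below every DMSO library. The domain fell by 0.76 on the log2 scale of CPM + 1 (SE 0.164, limma adjusted p = 0.0286), and by 0.67 without DMSO replicates 1 and 2, where the adjusted p was 0.112. With median centring of each library the change was 0.01, a scaling that raises the median change of all regions by 0.77. The call was also lost, with the direction kept, without DMSO replicate 1 (adjusted p = 0.201), DMSO replicate 2 (0.732) or WM-1119 replicate 1 (0.21), 2 (0.285) or 3 (0.414), and in edgeR (0.87). It was lost as well with a pseudocount of 5 CPM (adjusted p = 0.0556), a filter at 10 CPM (0.209), quantile normalization (0.0538) and limma without trend and robust (0.45). The call was kept with a replicate block (limma adjusted p = 0.000308) and background subtraction (0.000325, log2 change -1.11). It was also kept without DMSO replicate 3 (0.00545), with a pseudocount of 0.1 CPM (0.0328) and with no filter (0.0327). Over all alternatives limma's adjusted p ran from 6.6e-28 with array weights to 0.997.

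The median log2 change of the 255 domains was 0.17 (quartiles 0.03 and 0.28), and that of the 2 to 5 kb regions was also 0.17. Narrower regions had a median of -0.54 and all tested regions -0.47. In all, 199 broad domains (78.0%) were higher and 56 lower with WM-1119, and 78.7% of the 2 to 5 kb regions were higher. Without DMSO replicates 1 and 2 the median of the broad domains was -0.11, with 73 higher and 182 lower, that of the 2 to 5 kb regions -0.01, that of narrower regions 0.11 and that of all tested regions 0.08. Each class thus turned its sign when these 2 libraries were left out. With quantile normalization 99 domains were higher and 155 lower, with a median of -0.04.

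**Figure D3:**
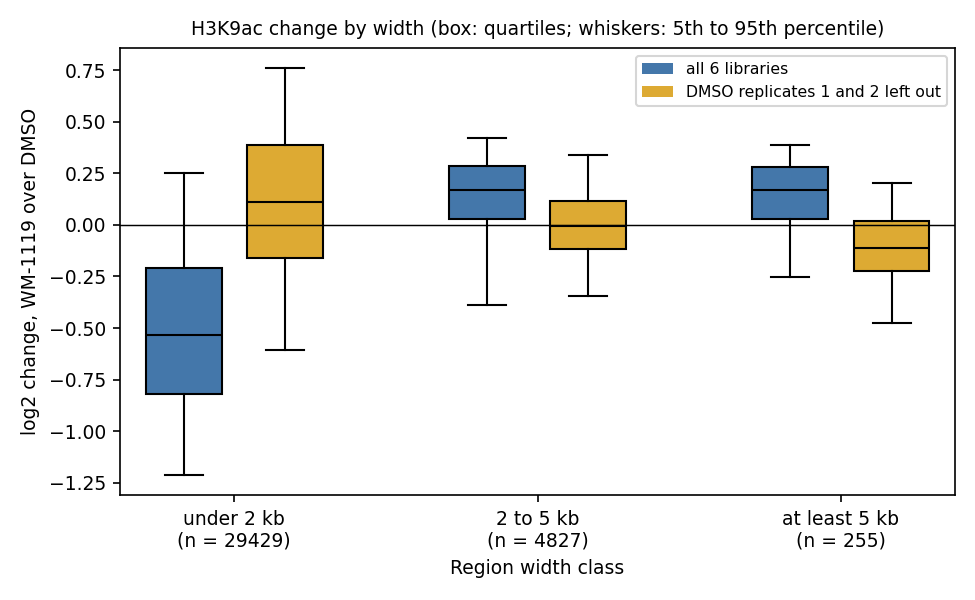
log2 change of H3K9ac (WM-1119 over DMSO) in regions under 2 kb, of 2 to 5 kb and of at least 5000 bp, with boxes at the quartiles and whiskers at the 5th and 95th percentiles. Blue boxes use all 6 libraries and yellow boxes leave out DMSO replicates 1 and 2: the median of the broad domains moves from 0.17 to -0.11, and that of the narrowest class from -0.54 to 0.11.

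Broad domains took 5.48%, 6.47% and 8.17% of the CPM in the DMSO libraries and 6.88%, 7.62% and 7.95% in the WM-1119 libraries. The means were 6.71 ± 1.36% and 7.48 ± 0.547% (SD, n = 3 each), and DMSO replicate 3 was the highest of the 6. Their median signal was 27.5, 32.3 and 40.9 CPM per kb with DMSO and 33.9, 38.1 and 38.8 with WM-1119. The groups overlapped in both measures.

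The change followed the signal per kb of a domain. When the 255 were split by CPM per kb into 4 groups of 63 or 64, from the lowest to the highest, the median log2 change was -0.04, 0.14, 0.20 and 0.29. All 8 domains with lower values and an unadjusted p under 0.05 were in the lowest of these groups. Without DMSO replicates 1 and 2 the medians were -0.11, -0.14, -0.10 and -0.11. The 192 domains with a coding start had a median change of 0.18 and the 32 without any such start -0.02, against 0.19 and -0.19 in the 2 to 5 kb regions. Without those 2 libraries the values in broad domains were -0.09 and -0.15. The part that the signal in narrow regions of DMSO replicates 1 and 2 has in these differences was not tested.

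**Figure D4:**
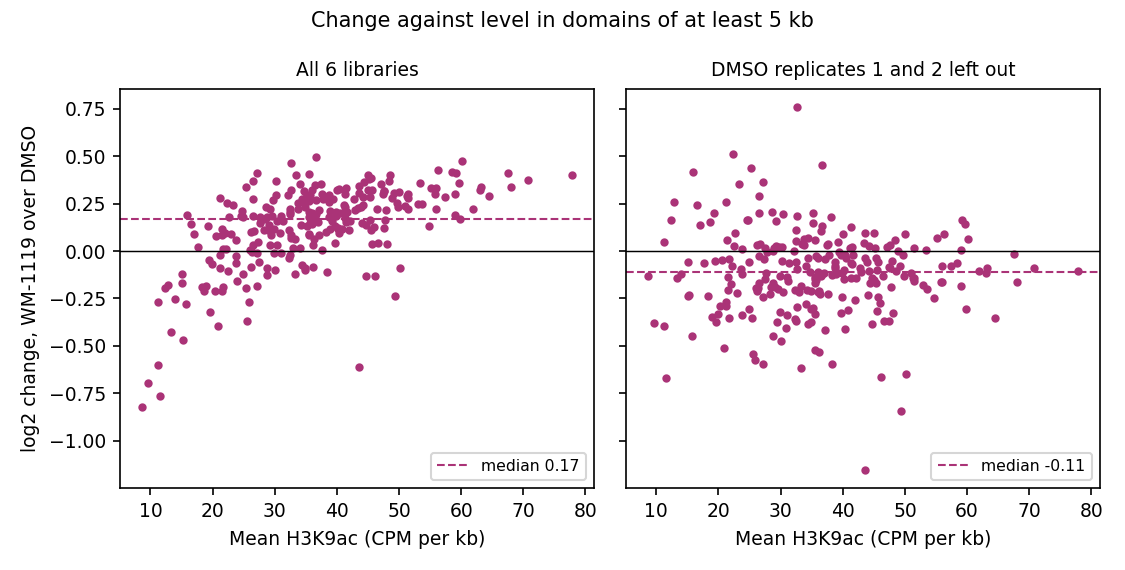
log2 change of each broad domain (WM-1119 over DMSO) against its mean H3K9ac (CPM per kb), with all 6 libraries on the left and without DMSO replicates 1 and 2 on the right; dashed lines are the medians, 0.17 and -0.11. The slope from low to high signal on the left is not visible on the right.

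After TTC7A, the domains with the smallest limma p and lower values with WM-1119 lay inside CPEB2, MIDEAS and ZNF521 and over CISH. None passed the adjusted test with treatment alone. With a replicate block those in CPEB2 (limma adjusted p = 0.00662), MIDEAS (0.0244) and ZNF521 (0.0256) did. The domain inside CPEB2, which encodes a regulator of messenger RNA polyadenylation and translation (chr4:15014365-15019371), held 63.9, 73.2 and 32.7 CPM with DMSO and 31.5, 26.5 and 31.7 CPM with WM-1119. The log2 change there was -0.83 (limma adjusted p = 0.194, SE 0.223) and -0.13 without DMSO replicates 1 and 2, and DMSO replicate 3 lay close to the WM-1119 libraries. The domain over the CPEB2 start, 3205 bp away (chr4:15000809-15011159), held 442, 516 and 620.2 CPM with DMSO and 611, 731 and 751 CPM with WM-1119, a log2 change of 0.41 (SE 0.133, adjusted p = 0.307), and of 0.16 without those libraries. The inner domain thus held 14.5%, 14.2% and 5.28% of the CPM of the start domain with DMSO and 5.16%, 3.63% and 4.22% with WM-1119.

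In ZNF521, which encodes a zinc finger protein of blood progenitors, 3 broad domains had log2 changes of 0.03, -0.60 and 0.32 in order of position. The first held 30.3 CPM per kb and ended 1456 bp before the second. The second is called the inner domain here (chr18:25228140-25235432, 7293 bp). It held 121, 91.6 and 84.5 CPM with DMSO and 60.5, 60.8 and 71.5 CPM with WM-1119, and its groups did not overlap. The log2 change was -0.60 (adjusted p = 0.263) and -0.39 without DMSO replicates 1 and 2. It held 31.8%, 17.7% and 12.8% of the CPM of the gene's strongest broad domain with DMSO and 10.7%, 9.12% and 10.5% with WM-1119. The domain in MIDEAS, which encodes a scaffold of a histone deacetylase complex (chr14:73740343-73745450), held 73.7, 60.8 and 48.1 CPM with DMSO and 38.3, 37.0 and 34.9 CPM with WM-1119. Its log2 change was -0.69 (adjusted p = 0.263) and -0.38 without those libraries. The domain over CISH and MAPKAPK3 (chr3:50604395-50613698, 9304 bp) held 207, 217 and 239.5 CPM with DMSO and 159.8, 160.4 and 183 CPM with WM-1119. CISH encodes a feedback inhibitor of STAT5 signalling. Here DMSO replicate 3 was the highest library, and the change was -0.40 with all libraries (adjusted p = 0.336) and -0.51 without DMSO replicates 1 and 2.

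Among domains with higher values the smallest p were at CDKN2C, ARRDC3, CPEB2, TRIM8 and ANP32A, and none passed with treatment alone. With a replicate block all 5 did, with limma adjusted p of 0.00504, 0.0261, 0.0341, 0.0458 and 0.0474 in that order. CDKN2C (chr1:50966286-50984118) held 689.5, 856 and 1178 CPM with DMSO and 1146, 1211 and 1349 CPM with WM-1119. DMSO replicate 3 lay above WM-1119 replicate 1, and the log2 change of 0.48 (SE 0.134, adjusted p = 0.251) was 0.06 without DMSO replicates 1 and 2. ARRDC3, which encodes an arrestin-like adaptor (chr5:91378914-91384741, 5828 bp), held 193, 156 and 182 CPM with DMSO and 287, 243 and 222 CPM with WM-1119. Its groups did not overlap, and its log2 change was 0.50 (SE 0.149, adjusted p = 0.267) with all libraries and 0.45 without those 2. TRIM8 and ANP32A had log2 changes of 0.43 and 0.41, and of 0.09 and -0.01 without them.

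No domain over a KMT2A fusion target passed the adjusted test with treatment alone. For the 22 such domains the median log2 change was 0.14, and 17 were higher (77.3%, against 78.0% of all broad domains) and 5 lower. The unadjusted limma p was under 0.05 for 4 of the former (18.2%, against 20.8%) and 1 of the latter (4.55%, against 3.14%). These shares are near those of all broad domains. Without DMSO replicates 1 and 2 the median was -0.13, with 4 higher and 18 lower. MEIS1 (chr2:66432828-66449207) held 523, 632 and 843 CPM with DMSO and 639.8, 716 and 767 CPM with WM-1119, a log2 change of 0.11 and of -0.26 without the 2 libraries. The HOXA domain had changes of 0.26 and -0.06, PBX3 of 0.35 and 0.11, CDK6 of 0.15 and -0.23, and the wider MEF2C domain of 0.20 and -0.06. JMJD1C, which encodes a histone demethylase, had 3 domains with changes of 0.37, 0.30 and 0.13, and of 0.06, -0.08 and -0.02 without the 2 libraries. A narrower MEF2C domain over another start had -0.19 and -0.23.

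The 9 domains over blood transcription factors had a median log2 change of 0.07 (5 higher, 4 lower), and -0.23 without DMSO replicates 1 and 2 (2 higher, 7 lower). SPI1, the gene of the myeloid factor PU.1, had 0.34 and 0.09, RUNX1 0.07 and -0.23, and IKZF1 -0.02 and -0.37. For chromatin regulators all 10 domains were higher (against 78.0% of all broad domains), with a median of 0.28. These 10 held a median of 47.3 CPM per kb. In the domain groups with the next most and the most CPM per kb, 95.2% and 93.8% were higher. Without DMSO replicates 1 and 2, 2 of the 10 were higher and 8 lower, with a median of -0.07. MLLT6 had 0.40, with groups that did not overlap, and 0.06 without those libraries. ARID1A had 0.30 and 0.01. For the 9 signalling and cell cycle domains the medians were 0.15 and -0.14. DUSP6, which encodes a phosphatase of ERK, held 111, 135 and 129 CPM with DMSO and 153, 188 and 159 CPM with WM-1119, a log2 change of 0.41 and of 0.36 without the 2 libraries, and its groups did not overlap. No domain of these 3 lists passed the adjusted test with treatment alone.

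FOS, ACTB and GAPDH show the spread at single genes in constant use or quickly induced. The FOS domain (chr14:75276588-75281862) held 136, 176 and 114 CPM with DMSO and 219, 261 and 126 CPM with WM-1119, so replicate 3 was the lowest of each group and the groups overlapped. ACTB had a log2 change of 0.32 and GAPDH of 0.30, which became -0.09 and 0.13 without DMSO replicates 1 and 2. BCL2, whose product blocks cell death, had -0.10 and -0.48.

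Replicates differed most at a small set of domains. The median SD within groups on the log2 scale was 0.230 for broad domains and 0.198 for the 2 to 5 kb regions. Among the 10 broad domains with the largest spread, 9 lay over LAMP5, LOC124905135 with PRR34 (2 domains), GRK2, NRROS, RENO1, BAHCC1, RCC1 and HSPD1. LAMP5 (chr20:9509910-9520529, 10620 bp), which encodes a lysosomal membrane protein, held 314, 601 and 764 CPM with DMSO and 205, 455 and 433 CPM with WM-1119. Replicate 1 was the lowest of each group there, and the groups overlapped. In each of these 9, replicate 1 was the lowest of both groups, as it was in 138 of the 255 domains (54.1%). Relative to the median broad domain of each library this still held for all 9, and for 68 of the 255 (26.7%). They were chosen for their spread, so the count describes them only.

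**Figure D5:**
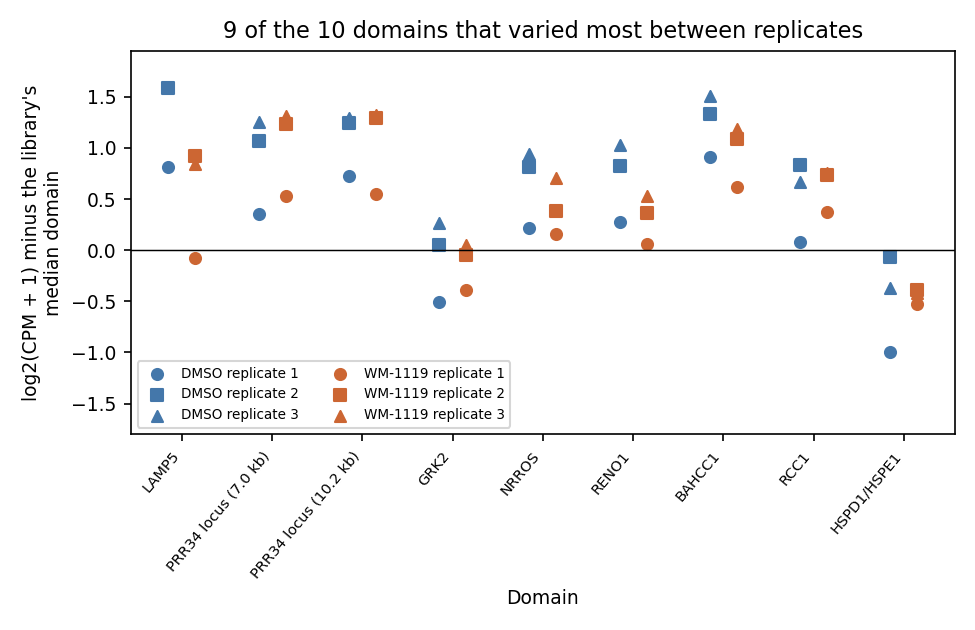
log2(CPM + 1) of 9 of the 10 most variable broad domains minus the median broad domain of the same library, for DMSO (blue) and WM-1119 (orange) replicates 1 to 3. Replicate 1 (circles) is the lowest of its group in each of the 9 domains.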

How the data were processed

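H3K9ac ChIP-seq regions of MOLM-13 cells were compared between 3 DMSO and 3 WM-1119 libraries. Tools named in the submitters' processing notes were Bowtie2, SAMtools, MACS2 and bedtools with the build hg38, without versions or roles. The merging of regions over libraries was not stated there. The authors named the deposited values TPM, but they are CPM over the listed regions: each library sums to 1000000 and, in 5 libraries, 100% of low values lay within 0.02 reads of a whole number of reads whatever the width. Starts were taken as counted from 0, and 1 was added.

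Regions averaging 1 CPM or more over the 6 libraries were tested in limma 3.58.1 (R 4.3.3; eBayes using trend and robust) on the scale log2(CPM + 1). The model held treatment alone, and the Benjamini-Hochberg adjustment ran over every tested region. Fold changes on this scale are smaller than the true ones for weak regions. edgeR 4.0.16 (quasi-likelihood) was run on the recovered reads of 5 libraries as an alternative. The design had assumed TPM, and CPM took the same test. The model was tested on simulated data. The simulation had no extra narrow-region signal in DMSO replicates 1 and 2 and no link between libraries of the same number. It therefore cannot show how the test behaves with those features. Genes, starts and sequences came from RefSeq on GRCh38.p14; 251 of the 291 overlapping coding genes had a placed start. Tables used Python 3.11.15. Among the 5 libraries with recovered reads, none was an exact copy of another. The lowest chi-square over its degrees of freedom was 1.55, between DMSO replicates 1 and 2, the libraries with the fewest reads of the 5. This measure was not adjusted for depth. Other pairs ran from 3.18 to 10.3, and WM-1119 replicate 2 was not in this check. Whether DMSO replicates 1 and 2 are independent was not tested. Depths are given with the results, and read numbers limit weak regions most.

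The named domains were the 10 widest, the 10 with the most CPM, the 5 highest and 5 lowest in CPM per kb, those called or with the 5 smallest p in each direction, the 3 nearest the width limit on each side, those over 20 fixed genes, and list members. Noncoding and variable domains were added after their values were seen. Of these, 1 domain is not reported here. The width rule, the members and the 9 gene lists were chosen with earlier results of these data known. Other pseudocounts, filters, scalings, library weights, a replicate block, background subtraction and left-out libraries were tried.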

Additional observations from a re-analysis of the deposited data

How the results depend on the processing

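Counts of calls and the sign of single domains depended on scaling and on DMSO replicates 1 and 2; the cause was not tested. In place of 27 regions called over the table, a filter at 10 CPM called 2, quantile normalization 1, median centring 2 (both higher), a replicate block 496 (112 of them higher), limma without trend and robust 0 (before adjustment, 33 were higher and 4903 lower at 0.05), array weights 34995, background subtraction 76 (25 higher) and edgeR 0. In place of 1 broad domain, 0 were called with a pseudocount of 5 CPM, the 10 CPM filter or quantile normalization. Median centring, limma without trend and robust, and edgeR also called 0. Array weights called 191, with 170 higher (66.7%, against 14.2% of all tested regions) and 21 lower (8.24%, against 64.0%). Background subtraction called 3, with 1 higher (0.392%, against 0.0558%) and 2 lower (0.784%, against 0.114%). The replicate block called 14 (9 higher), with shares given in the results. Before adjustment, edgeR and median centring had 0 broad domains under 0.05 in either direction, and limma without trend and robust had 0 higher and 2 lower. Leaving out 1 library gave 0 to 19637 regions and 0 to 121 broad domains, both the most without DMSO replicate 3. In that fit 111 broad domains were higher (43.5%, against 5.38% of all tested regions) and 10 lower (3.92%, against 38.5%).

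Same-numbered libraries had deviations from their group means that correlated at 0.22, 0.053 and 0.33 over all tested regions, but at 0.61, 0.41 and 0.54 over the broad domains, where each library correlated best with its own number. The labels name no shared batch, so the fit without the block stayed the main one. The block left every change as it was and altered only the calls, with 10 more of the 34 named domains under 0.05 (LOC124905135 at an adjusted p of 0.0336 and FOS at 0.0499 beside those given with the results).

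The median change of broad domains was -0.041 with quantile normalization, 0.94 with median centring, -0.11 without DMSO replicates 1 and 2, 0.51 in edgeR, and 0.057 to 0.31 when 1 library was left out. Without those DMSO libraries its difference from the regions of 2 to 5 kb was -0.11, and the difference in share of CPM was -0.69 percentage points in place of 0.78. The ratio of CPM per kb was 1.42 for domains of at least 10 kb. An overlap of 500 bp left 244 domains with a coding gene, and 196 overlapped an annotated gene end.

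Some named domains changed sign. Without DMSO replicates 1 and 2 the log2 change was -0.20 at SATB1, -0.056 at the HOXA domain, -0.090 at LOC124905135, -0.076 at COMMD3 with BMI1, -0.058 at MEF2C, -0.24 at TSPOAP1, -0.015 at ANP32A, -0.26 at MEIS1, -0.23 at CDK6, -0.020 at the widest JMJD1C domain, -0.083 at JMJD1C with REEP3, -0.21 at ZEB2, -0.23 at RUNX1 and -0.089 at ACTB. With quantile normalization it was -0.21 at SATB1, -0.040 at the HOXA domain, -0.019 at MEF2C, -0.0070 at TSPOAP1, -0.061 at MEIS1, -0.066 at CDK6, -0.058 at the widest JMJD1C domain and -0.13 at RUNX1. Median centring gave 0.65 at MEF2D, 0.0075 at TTC7A, 0.078 at MIDEAS, 0.17 at the inner ZNF521 domain, 0.37 at CISH, 0.71 at the inner PBX3 domain, 0.58 at the narrower MEF2C domain, 0.75 at IKZF1 and 0.67 at BCL2. edgeR gave 0.14 at MEF2D, 0.032 at CISH, 0.36 at the inner PBX3 domain, 0.28 at the narrower MEF2C domain, 0.30 at IKZF1 and 0.26 at BCL2. Leaving out 1 library at a time gave ranges that crossed 0, of -0.017 to 0.33 at SATB1, -0.36 to 0.13 at MEF2D, -0.049 to 0.30 at MEIS1, -0.050 to 0.34 at CDK6, -0.017 to 0.22 at the widest JMJD1C domain, -0.0040 to 0.46 at ZEB2, -0.076 to 0.21 at RUNX1, -0.13 to 0.15 at IKZF1 and -0.26 to 0.088 at BCL2. With array weights IKZF1 had 0.14 (adjusted p = 0.015).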

Other observations

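Genes of heterogeneous nuclear ribonucleoproteins, which bind and process nascent RNA, were seen among the broad domains when the gene names were read. Of 21 coding genes on these chromosomes whose symbols start with HNRNP, 10 (47.6%) overlapped a broad domain, 6 a region of 2 to 5 kb at most and 5 no listed region. The widest was HNRNPU (chr1:244854395-244867623, 13229 bp, 55.9 CPM per kb). Others were HNRNPA2B1 with CBX3 (9113 bp, 49.8 CPM per kb), HNRNPA1 with CBX5 (7052 bp, 41.5 CPM per kb) and HNRNPK with RMI1 (5092 bp, 57.4 CPM per kb). All 10 were higher with WM-1119 (against 78.0% of all broad domains), with a median log2 change of 0.27. None passed limma's adjusted test, and 4 had an unadjusted limma p under 0.05 (40.0%, against 20.8% higher at that threshold among all broad domains). Their median was 44.1 CPM per kb. In the domain groups with the next most and the most CPM per kb, 95.2% and 93.8% were higher, 19.0% and 46.9% at that threshold. Without DMSO replicates 1 and 2, 2 were higher and 8 lower, with a median of -0.08. The group was picked after it was seen, so its count is a description.

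CHASERR (chr15:92881503-92886974, 5472 bp), a long noncoding RNA gene upstream of CHD2, held 242, 289 and 331 CPM with DMSO and 375, 363 and 359 CPM with WM-1119. Its groups did not overlap, with a log2 change of 0.36, and of 0.14 without DMSO replicates 1 and 2. CHD2 itself, which encodes a chromatin remodeller, had a broad domain of 6308 bp with a log2 change of 0.27 and of -0.02.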
